A study of Mus musculus with 8 samples.

Results

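The Hox genes encode homeodomain transcription factors that lie in 4 chromosomal clusters, and 39 of them were represented on the arrays described here, by 52 probes among 56605 probes for 37008 genes. The members were taken as every non-control probe whose gene name was Hox, a cluster letter from a to d and a paralogue number, and each gene was read at the probe with the highest mean over the 8 arrays. On the mm9 build the probes of the 11 Hoxa genes lay on chromosome 6 between 52105594 and 52209039. Those of the 10 Hoxb genes lay on chromosome 11 between 96057854 and 96228510, those of the 9 Hoxc genes on chromosome 15 between 102759058 and 102867272, and those of the 9 Hoxd genes on chromosome 2 between 74509248 and 74603059.

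RNA labelled as astrocytes of spinal cord from C57Bl/6J mice was hybridised to 8 single-colour arrays, 1 for each group. The groups were wild-type (WT) mice, titled FL or F/F, and mice deficient in connexin 47 (Cx47, a gap junction protein of oligodendrocytes), titled icKO. Each genotype was profiled naive, with experimental autoimmune encephalomyelitis (EAE, the mouse model of multiple sclerosis), with EAE under iguratimod (an anti-inflammatory drug), and in the chronic phase of EAE. Only the titles of the chronic arrays carry the label p50, which is given here as printed. The series title gives the Cx47 deletion as conditional and oligodendroglia-specific, and the series names the naive FL array as its control. The Cre line, the age of the animals, how the cells were isolated and whether animals were pooled are not given in the sources used here. With 1 array in each group, a difference between 2 arrays has no replicate check and no test.

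Hox genes are switched on in the embryo in the order in which they lie along their cluster, and the adult hindbrain and spinal cord keep much of that pattern. Low paralogue numbers have their front limit of expression in the hindbrain, middle numbers in the cervical and thoracic cord, and high numbers toward the lumbar and sacral cord. Brain in front of the hindbrain normally expresses none of them, so the set works as a position code. Genes with the same paralogue number in different clusters are copies of 1 ancestral gene and have similar limits. Retinoic acid, acting through nuclear receptors, opens the low-numbered genes, Cdx factors and Gdf11 act on the high-numbered ones, Polycomb complexes keep them silent, and Pbx and Meis proteins bind DNA together with Hox proteins.

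Promoter windows illustrate members from each stretch of the clusters. RefSeq promoter windows (GRCm38.p6) were at hand for 22 of the 39 genes, and the 250 bases before the start are printed for 5 of them. Hoxb4 and Hoxc4 are shown as copies whose signals moved together over the arrays, Hoxd4 as the copy that departed from them on the chronic arrays, Hoxb8 as a middle gene, and Hoxd10 as a high-numbered gene that dropped below background on the WT EAE array. The windows are chr11:96318017-96318266 for Hoxb4, chr15:103034145-103034394 for Hoxc4, chr2:74721728-74721977 for Hoxd4, chr11:96281655-96281904 for Hoxb8 and chr2:74691641-74691890 for Hoxd10, all on the plus strand. Capitals mark AGGTCA or its reverse complement TGACCT, the half-site of nuclear receptors, and TGATNNAT or its reverse complement ATNNATCA, a Hox-Pbx motif, searched on both strands.
Hoxb4: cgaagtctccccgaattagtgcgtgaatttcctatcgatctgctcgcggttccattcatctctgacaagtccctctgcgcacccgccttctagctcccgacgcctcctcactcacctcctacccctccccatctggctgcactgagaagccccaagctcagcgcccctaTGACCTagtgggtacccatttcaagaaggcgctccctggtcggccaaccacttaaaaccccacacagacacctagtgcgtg
Hoxc4: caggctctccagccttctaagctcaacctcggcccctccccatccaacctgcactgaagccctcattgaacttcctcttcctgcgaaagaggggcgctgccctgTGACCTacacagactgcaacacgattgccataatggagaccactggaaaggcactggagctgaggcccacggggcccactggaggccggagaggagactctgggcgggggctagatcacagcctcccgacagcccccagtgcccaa
Hoxd4: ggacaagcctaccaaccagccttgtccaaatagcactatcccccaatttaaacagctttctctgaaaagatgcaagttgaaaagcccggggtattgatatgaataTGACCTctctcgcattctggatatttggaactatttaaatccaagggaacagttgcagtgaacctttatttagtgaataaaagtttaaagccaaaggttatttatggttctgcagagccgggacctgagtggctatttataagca
Hoxb8: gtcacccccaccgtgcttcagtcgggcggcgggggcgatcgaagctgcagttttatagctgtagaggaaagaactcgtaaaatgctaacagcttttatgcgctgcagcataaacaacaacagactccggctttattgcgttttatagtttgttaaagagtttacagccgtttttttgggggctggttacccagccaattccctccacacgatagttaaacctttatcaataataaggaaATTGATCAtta
Hoxd10: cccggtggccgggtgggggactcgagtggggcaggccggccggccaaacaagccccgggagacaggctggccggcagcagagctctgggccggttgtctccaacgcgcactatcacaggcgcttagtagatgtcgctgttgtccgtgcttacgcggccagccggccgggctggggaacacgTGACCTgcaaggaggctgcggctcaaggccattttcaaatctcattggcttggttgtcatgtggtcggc
The AGGTCA motif stood once in the Hoxb4, Hoxc4, Hoxd4 and Hoxd10 windows. It stood in 6 of 24 Hox windows (25.0%) and in 14% of all 32851 windows of the same length. The TGATNNAT motif stood once in the Hoxb8 window, in 4 of 24 Hox windows (16.7%) and in 7.68% of all windows. A match is a string of letters and no measured binding.

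Levels below are log2 signals minus the 75th percentile of the array, so 0 is the signal that 75% of probes lie under. Probes of different genes bind with different strength, so their levels are not set against each other. By the scanner's own flag, 59.7% to 72% of spots passed background clearly. Of the 2 slides, the first held 6 arrays and the second the 2 chronic arrays, whose spike-in slope was 0.76 against 0.92 to 1.07 on the first slide. Chronic phase and slide cannot be told apart. All 11 astrocyte markers, all 11 general neuron markers and all 10 oligodendrocyte markers were well above background on all 8 arrays, so markers of other cells stood beside those of the labelled cell type.

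Hox signal was present on every array. Of the 39 genes, 23 were well above background on all 8 arrays. Among these were Hoxa2, Hoxa3, Hoxa5, Hoxa7, Hoxa9, Hoxa10, Hoxb2 to Hoxb9, Hoxc4, Hoxc5, Hoxc6, Hoxc8, Hoxc9, Hoxc10, Hoxd4 and Hoxd8. Hoxa4, Hoxa11, Hoxd3, Hoxd9 and Hoxd10 were so on 7 arrays, Hoxc11 on 6, Hoxc13 on 5, Hoxb13 and Hoxd1 on 4, and Hoxa6 on 2. Hoxc12 was above background on the Cx47-deficient EAE array and on none of the other 7. Hoxb1, Hoxa13, Hoxd11, Hoxd12 and Hoxd13 were not well above background on any array. These include 4 of the genes at the high-numbered ends of the Hoxa and Hoxd clusters, which are known for the limb and the tail end of the body.

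The counts per array ran from 27 to 32 of 39. They were 32 on the WT naive array and 27 on the Cx47-deficient naive array, 28 and 32 in EAE, 30 and 30 with iguratimod, and 30 and 32 in chronic EAE, WT first. The 16 genes of paralogues 9 to 13 varied most, with 11 and 8 above background on the naive arrays, 7 and 12 in EAE, 9 and 9 with iguratimod, and 10 and 11 in chronic EAE. Those of paralogues 1 to 4 numbered 9 to 11 of 12 and those of paralogues 5 to 8 numbered 10 or 11 of 11.

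The 33 genes that were well above background on at least 2 arrays, 11 in each paralogue range, are followed below, and the other 6 enter a comparison only where they were above background on 1 of its arrays. On the heat map the 3 ranges show different array orders.

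**Figure D1:**
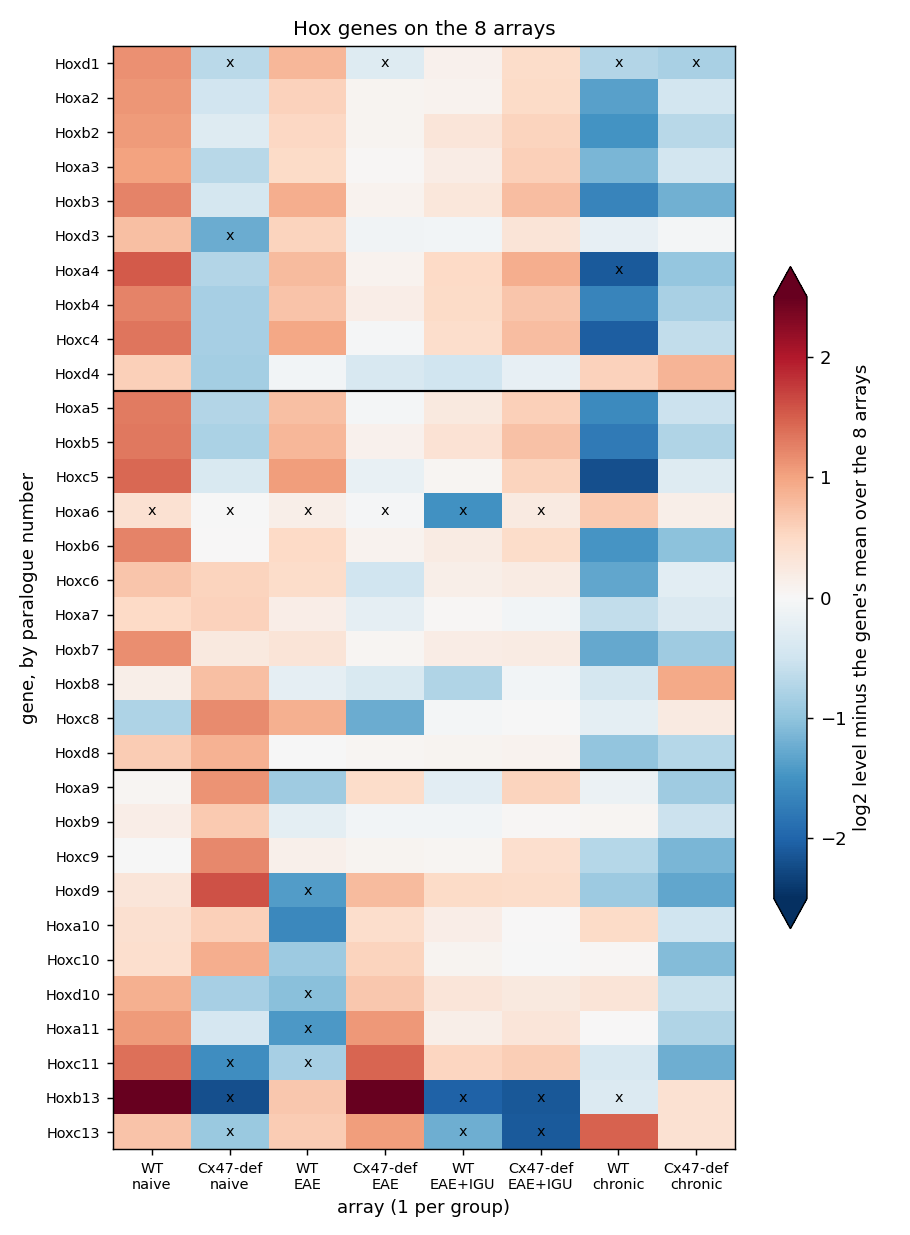
Level of 32 of the 33 Hox genes (rows, by paralogue number) on the 8 arrays (columns, 1 per group), as log2 signal minus the gene's own mean over the arrays, red higher and blue lower. Crosses mark arrays where the gene was not well above background, and lines part paralogues 1-4, 5-8 and 9-13; the upper rows are red on the WT naive array and, but for Hoxd4, blue on the WT chronic array, while most of the lower rows are blue on the WT EAE array.

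Paralogues 1 to 4 moved almost as a block. Their mean deviation from the gene means was 1.11 on the WT naive array, 0.65 on WT EAE, 0.55 on Cx47-deficient EAE with iguratimod, 0.17 on WT EAE with iguratimod, -0.04 on Cx47-deficient EAE, -0.52 on Cx47-deficient chronic, -0.68 on Cx47-deficient naive and -1.23 on WT chronic. The WT naive array held the highest value of 10 of the 11 genes, and the WT chronic array held the lowest of 8. Hoxc4, whose family sets limits at the hindbrain and upper neck, shows this course. Its level was 1.09 on WT naive, 0.73 on WT EAE, 0.53 on Cx47-deficient iguratimod, 0.20 on WT iguratimod, -0.27 on Cx47-deficient EAE, -0.85 on Cx47-deficient chronic, -1.08 on Cx47-deficient naive and -2.31 on WT chronic. Hoxb5, of the next paralogue group, ran from 1.54 on WT naive to -1.55 on WT chronic, with -0.57 on Cx47-deficient naive.

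Hoxd4 departed from the block on the second slide. It read -1.99 on WT naive and -3.44 on Cx47-deficient naive, between -2.66 and -3.08 on the 4 EAE arrays of the first slide, and -2.02 and -1.73 on the chronic arrays of WT and Cx47-deficient mice. Its highest level was thus on a chronic array, where Hoxb4 read -2.38 and -1.54 after 0.51 and -1.56 on the naive arrays.

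Paralogues 9 to 13 had another order. Their mean deviation, with dim values as measured, was 0.83 on Cx47-deficient EAE, 0.76 on WT naive, 0.01 on Cx47-deficient naive and on WT chronic -0.01, with -0.15 and -0.17 under iguratimod, -0.63 on WT EAE and -0.66 on Cx47-deficient chronic. Hoxc11, a lumbar-level gene, read -2.96 on Cx47-deficient EAE and -3.03 on WT naive. It read -3.87 and -3.79 on the WT and Cx47-deficient iguratimod arrays and -4.81 and -5.63 on the chronic arrays, and it was not well above background on the Cx47-deficient naive and WT EAE arrays. Hoxb13, expressed at the tail end of the spinal cord, was above background on 4 arrays. Its level was -2.52 on WT naive, -2.80 on Cx47-deficient EAE, -4.81 on WT EAE and -5.09 on Cx47-deficient chronic, and it was not well above background on the other 4 arrays.

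Across the 8 arrays, the correlation between genes followed paralogue number more than cluster. The median Pearson r was 0.95 over 55 pairs within paralogues 1 to 4, 0.55 within 5 to 8, 0.37 within 9 to 13, and 0.11 over 121 pairs of a gene from 1 to 4 and a gene from 9 to 13. Pairs of the same paralogue number in different clusters had a median r of 0.79 (32 pairs). Pairs in the same cluster had 0.23 (124 pairs), and pairs that shared neither had 0.24 (372 pairs). These are descriptions over 8 arrays that share the centring and the slides, and they include values below background.

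Whether Cx47 deficiency went with a different Hox pattern in naive mice was asked of the 2 naive arrays. At the probe used for each gene, all 11 measured genes of paralogues 1 to 4 were at least 2-fold lower on the Cx47-deficient array. Their median log2 difference was -1.69. Of 32 Hox genes compared, 19 were at least 2-fold lower and 4 at least 2-fold higher. Of the 23974 genes compared, 2.67% passed that fold on the lower side and 8.03% on the higher side, and their median was -0.05. The difference changed with paralogue number. Its median was -1.48 for paralogue 2, -1.71 for 3, -2.12 for 4 and -2.03 for 5. It was -0.68 for paralogue 6, -0.43 for 7, 0.60 for 8, 1.14 for 9 and 0.21 for 10. For paralogues 11 and 13 it was lower again, at -1.97 and -1.94, each from 2 genes.

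Among single genes Hoxa4 was 4.76-fold lower, Hoxc4 4.49-fold lower and Hoxb5 4.31-fold lower on the Cx47-deficient naive array. Hoxb13 was at least 7.69-fold lower and Hoxc11 at least 5.42-fold lower, bounds because both were below background there. The genes on the higher side sat in the middle of the code. Hoxc8, a thoracic gene, was 3.91-fold higher, Hoxd9 2.44-fold, Hoxc9 2.30-fold and Hoxa9 2.10-fold. Hoxd10, Hoxa11 and Hoxb6 were 3.31-fold, 2.83-fold and 2.34-fold lower.

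In untreated EAE the low and high ends of the code differed in opposite directions. All 11 genes of paralogues 1 to 4 were lower on the Cx47-deficient array, with a median log2 difference of -0.64 and 2 of them past 2-fold. Of 12 genes of paralogues 9 to 13, 8 were at least 2-fold higher, with a median of 1.39. Among 23933 genes in all, 6.72% passed 2-fold on the higher and 0.76% on the lower side, and the median was -0.03. Hoxc11 was at least 4.88-fold higher, Hoxa11 at least 4.07-fold and Hoxd9 at least 4.05-fold, because the WT EAE array was below background for each. Hoxa10, above background on both arrays, read -2.96 on WT EAE and -0.92 on Cx47-deficient EAE, a 4.12-fold difference, and Hoxb13 was 4.03-fold higher. Hoxc12, above background on the Cx47-deficient EAE array alone of the 8, was at least 1.73-fold higher. It is among the 12 only through that array, so its side was set by the filter. The largest difference on the lower side was that of Hoxc8, 4.39-fold lower after being 3.91-fold higher in the naive pair. Hoxc5 was 2.35-fold, Hoxd1 at least 2.22-fold and Hoxc4 2-fold lower.

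Between the WT and Cx47-deficient arrays of iguratimod-treated EAE few genes of any kind differed by 2-fold. Of 30 Hox genes compared, 0 did, where 2.62% of 23188 genes were higher and 2.35% lower by that fold. A count of 0 is near that share. The differences ran from -0.17 for Hoxa10 to 0.83 for Hoxa9. All 11 genes of paralogues 1 to 4 lay above 0, with a median of 0.39 (all genes -0.03), and paralogues 9 to 13 had a median of 0.07.

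In chronic EAE the direction at both ends was opposite to that in untreated EAE. All 10 measured genes of paralogues 1 to 4 were higher on the Cx47-deficient array, with a median log2 difference of 0.82, and 10 of 11 genes of paralogues 9 to 13 were lower, with a median of -0.77. Past 2-fold there were 7 genes higher and 2 lower of 32, where 2.08% and 1.89% of 27067 genes were (median 0.02). Hoxc5 was 3.69-fold higher, Hoxc4 2.74-fold, and Hoxb8 2.62-fold. Hoxc10 and Hoxc13 were 2.17-fold and 2.12-fold lower.

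**Figure D2:**
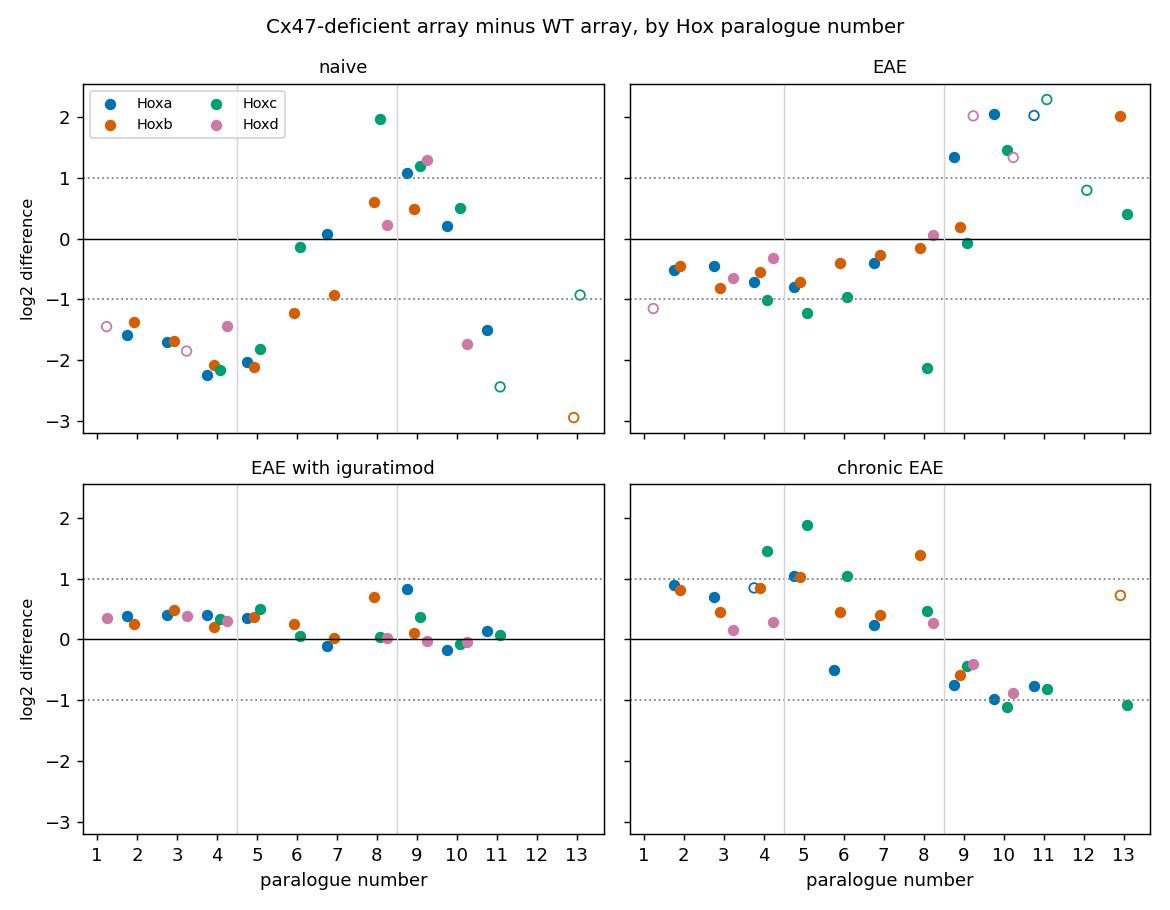
Log2 difference of the Cx47-deficient array from the WT array (y axis) against paralogue number (x axis) for 29 to 32 Hox genes in each of 4 conditions, coloured by cluster. Open circles are bounds, where 1 of the 2 arrays was below background, and dotted lines mark 2-fold; paralogues 1-4 lie below 0 in naive and EAE mice and above 0 with iguratimod and in chronic EAE.

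A change of scaling left these sides in place for paralogues 1 to 4. They held for every compared gene after normexp background correction, median centring, quantile normalization and in the authors' processed values, and for all but Hoxb2 when probes of a gene were averaged. Size depended more on the background correction. The naive median became -1.13 and the chronic median 0.28 with normexp, and for paralogues 9 to 13 the EAE median became 0.45. In the limma fit of genotype over the 4 conditions, 0 of 33 Hox genes were called at an adjusted p under 0.05, 0 had an unadjusted p under 0.05, and 0% of 25884 genes were called. All 11 genes of paralogues 1 to 4 had a fitted difference below 0, with a median of -0.35 against -0.00 over all genes. Their change of side between conditions counts as spread in this fit, so it cannot show a difference of that kind. Over the 33 the fitted differences ran from -0.80 to 0.76, and 4.42% of all genes had an unadjusted p under 0.05.

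The course of disease was then followed within each genotype, on arrays that also enter the comparisons above. In WT mice the high-numbered genes were lower in EAE than in the naive state. Of 11 genes of paralogues 9 to 13, 7 were at least 2-fold lower, with a median log2 difference of -1.52, where 1.94% of 22591 genes were lower (median -0.04). Hoxb13 was 4.89-fold lower and Hoxa10 3.99-fold, while Hoxc11 and Hoxa11 were at least 4.64-fold and at least 4.03-fold lower. Hoxd10 was at least 2.92-fold lower. All 11 genes of paralogues 1 to 4 were also lower, by less (median -0.52, 0 past 2-fold). Hoxc8 was 3.18-fold higher, where 3.38% of genes were higher.

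In Cx47-deficient mice the same step was higher at the low end and split at the high end. All 10 measured genes of paralogues 1 to 4 were higher in EAE than in naive mice (median 0.63), and 6 of 12 genes of paralogues 9 to 13 were at least 2-fold higher while the other 6 were lower, where 5.11% of 24610 genes were (median -0.05). Hoxb13 was at least 6.34-fold and Hoxc11 at least 5.69-fold higher, and Hoxa11 and Hoxd10 were both 2.85-fold higher. Hoxc13 was at least 2.37-fold higher. Hoxc12, also among the 6 higher genes, entered only through the EAE array, so its side was set by the filter. The 6 lower genes were all 4 measured genes of paralogue 9 (median log2 difference -0.76), with Hoxa10 (-0.16) and Hoxc10 (-0.36). Past 2-fold on the lower side were Hoxc8 (5.38-fold), Hoxc9 (2.19-fold), Hoxb8 (2.18-fold) and Hoxc6 (2.08-fold), and 2.13% of all genes were lower by 2-fold. These 2 steps were not tested against each other.

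Over both genotypes limma called 0 of 33 Hox genes for EAE against naive, where 0.251% of genes were called. Hoxa7 (log2 difference -0.58 ± 0.21, SE) and Hoxd8 (-0.74 ± 0.16) had an unadjusted p under 0.05, with adjusted p of 0.629 and 0.224. That is 2 of 33, where 7.17% of all genes had such a p.

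Iguratimod-treated arrays were set against untreated EAE arrays of the same genotype. In WT mice 4 Hox genes were at least 2-fold higher with iguratimod, all of paralogues 9 to 11, where 3.13% of 22820 genes were. These were Hoxa10 (3.43-fold), Hoxd9 (at least 3.24-fold), Hoxc11 (at least 2.59-fold) and Hoxa11 (at least 2.13-fold), all among the genes that were low on the WT EAE array. None of 32 was 2-fold lower, where 1.27% of genes were. In Cx47-deficient mice Hoxb13 was at least 6.21-fold and Hoxc13 at least 2.32-fold lower, and Hoxc8 was 2.34-fold higher, where 3.57% and 0.325% of 24019 genes were lower and higher. Over both genotypes limma called 0 of 33, and 0% of all genes. Hoxc13 had an unadjusted p under 0.05 (log2 difference -2.5 ± 0.49, SE, adjusted p 1.00 by limma), where 2.11% of all genes did, and it was below background on both iguratimod arrays.

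The chronic arrays carried the lowest low-numbered Hox signals in WT mice. Against the naive array 21 of 33 Hox genes were at least 2-fold lower and 0 higher, where 9.44% of 26395 genes were lower and 16.3% higher. The median log2 difference was -2.56 for paralogues 1 to 4, -1.99 for 5 to 8 and -0.56 for 9 to 13, against -0.07 over all genes. Hoxc5 was 12.4-fold lower, Hoxc4 10.5-fold, Hoxb5 8.48-fold, Hoxa4 at least 10.1-fold and Hoxb13 at least 9.79-fold. Against acute EAE 17 genes were lower and 1, Hoxa10, was 4.26-fold higher, where 12.3% and 17.9% of 26491 genes were. In that step Hoxc5 was 9.49-fold, Hoxc4 8.21-fold, Hoxa4 at least 6.06-fold and Hoxb5 6.04-fold lower. The direction for paralogues 9 to 13 rested on the scaling. Their median was 0.74 in the main scaling and -0.02 after quantile normalization, which moved the median of all genes from -0.04 to -0.17.

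In Cx47-deficient mice the chronic array differed from the naive one mainly in the middle and high numbers. Of 32 genes 9 were at least 2-fold lower and 2 higher, where 2.32% and 8.75% of 26281 genes were. Hoxd9 was 7.42-fold lower, Hoxc9 5.06-fold, Hoxa9 4.03-fold, Hoxc10 4-fold and Hoxd8 3-fold. Hoxd4 was 3.26-fold and Hoxd3 at least 2.08-fold higher. The median for paralogues 1 to 4 was 0.01 (all genes 0.05). Against acute EAE all 12 compared genes of paralogues 9 to 13 were lower, 9 of them past 2-fold, where 5.57% of 26397 genes were. They were led by Hoxc11 (6.38-fold), Hoxb13 (4.90-fold), Hoxd9 (4.29-fold), Hoxa11 (3.58-fold) and Hoxc10 (3.11-fold). Among the 9 was Hoxc12, which entered only through the acute EAE array, so its side was set by the filter. Hoxc8, Hoxb8 and Hoxd4 were 2.75-fold, 2.51-fold and 2.39-fold higher, where 11.9% of genes were higher.

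**Figure D3:**
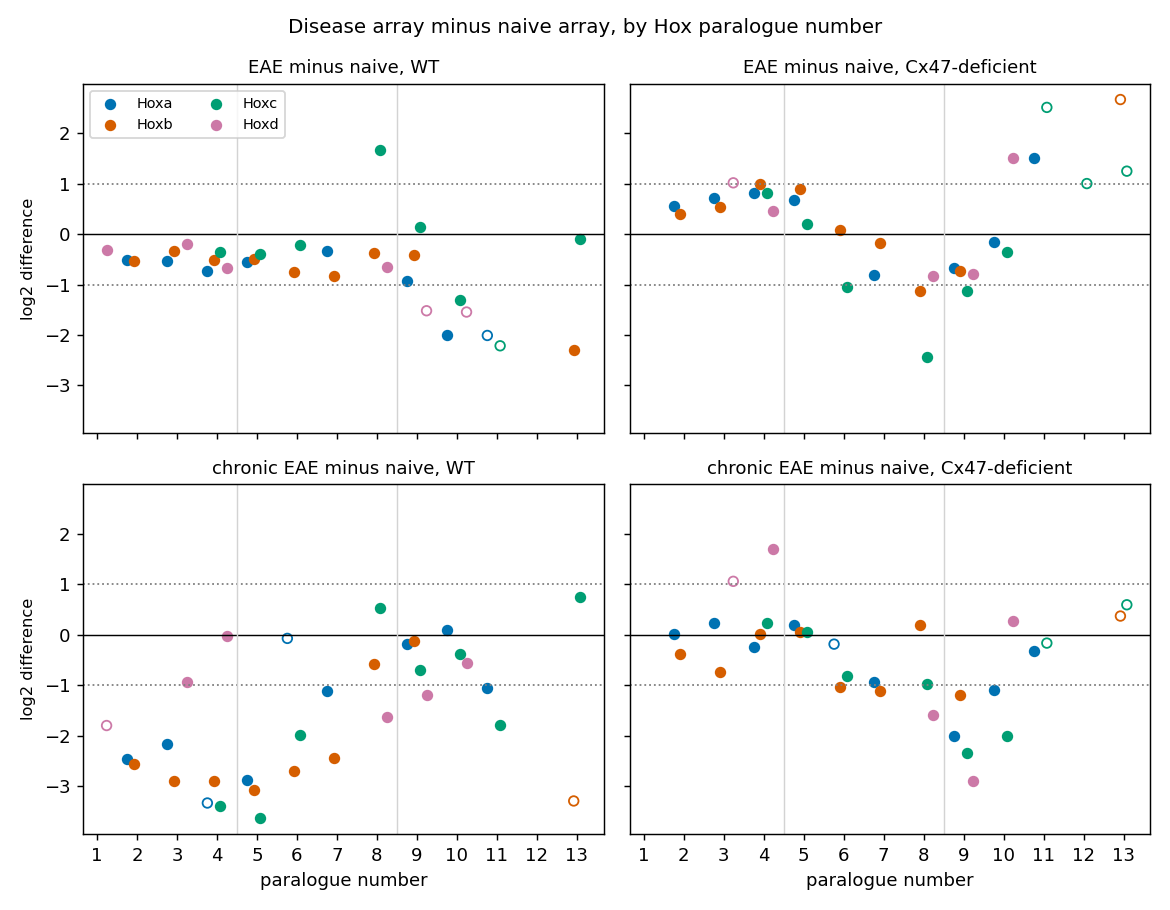
Log2 difference of the EAE array (top) and the chronic EAE array (bottom) from the naive array (y axis) against paralogue number (x axis), for WT (left) and Cx47-deficient mice (right), coloured by cluster with open circles for bounds and dotted lines at 2-fold. High numbers lie low in WT EAE, low numbers lie low in WT chronic EAE, and paralogue 9 lies lowest in Cx47-deficient chronic EAE.

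Over both genotypes Hoxd8 alone of the 33 genes fell past the threshold of limma. This middle-numbered gene, with its probe on chromosome 2 at 74545922 to 74545981 (mm9), read 0.47 and 0.70 on the naive arrays of WT and Cx47-deficient mice, -0.18 and -0.12 in EAE, -0.10 and -0.08 with iguratimod, and -1.15 and -0.88 in chronic EAE. The 2 naive arrays were highest and the 2 chronic arrays lowest. These are the values behind the call, and the share of all genes with that order was not counted. Hoxd8 fell by 0.86 ± 0.16 (SE) from acute to chronic EAE (adjusted p 0.0421) and by 1.60 ± 0.16 from naive to chronic EAE (adjusted p 0.0455) in limma. Its second probe followed the first with r = 0.98. For comparison, limma called 14.5% of all genes in the first comparison and 0.947% in the second. Either call was lost without any 1 of the 8 arrays, with adjusted p between 0.0579 and 0.263 and between 0.0638 and 0.274.

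The other Hox genes mostly lay on the lower side in these fits without passing it. From naive to chronic EAE 29 of 33 fitted differences were below 0, with a median of -1.19 against 0.03 over all genes, and 9 had an unadjusted p under 0.05, where 32.6% of all genes did. From acute to chronic EAE 26 were below 0 (median -1.01 against 0.02) and 5 had an unadjusted p under 0.05, where 41.2% of all genes did. In chronic against naive mice Hoxb7 differed by -1.78 ± 0.34 (adjusted p 0.0673 by limma), Hoxa7 by -1.03 ± 0.21 (0.0719) and Hoxb6 by -1.87 ± 0.44 (0.0791). Slide and phase coincide in both fits.

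Genes that act with or on Hox genes were mostly above background. All 9 cofactors of the Pbx, Meis and Pknox families and all 18 Polycomb and related genes were well above background on 8 arrays. Of the cofactors, Meis2 and Pbx3 ranged over 2.07 and 1.59 without a call. None of the 18 Polycomb genes was called in any of the 5 fits, where 0% to 14.5% of all genes were. Cbx2, a reader of the Polycomb mark, had the widest range among them (1.70), followed by Ezh2 (1.37), a histone methyltransferase, and Pcgf2 (1.36). Of 20 activators and retinoid genes, Cdx1, Cdx2 and Cyp26a1 were above background on 0 arrays and Cdx4 and Cyp26c1 on 1, while Gdf11 was above background on 6. Aldh1a2, which makes retinoic acid, fell by 1.69 ± 0.27 from acute to chronic EAE (adjusted p 0.0386 by limma), from -1.38 and -1.17 to -3.32 and -2.61. It was the 1 call among the 15 genes of this list that were tested, over the 5 fits. In that fit 14.5% of all genes were called. Aldh1a1 and Egr2, a hindbrain segment gene, ranged over 2.62 and 2.06 without a call.

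Of 22 genes beside the clusters that were on the arrays, 4 were called from acute to chronic EAE, where 14.5% of all genes were, and 0 in the other 4 fits. In that fit Gpr84, a myeloid receptor gene next to the Hoxc cluster, fell by 2.58 ± 0.29 (adjusted p 0.0291), Skap2 fell by 1.24 ± 0.24 (0.0424), Copz2 fell by 1.22 ± 0.27 (0.0471) and Calcoco1 rose by 1.75 ± 0.41 (0.0499), all by limma. Evx1, a homeobox gene that lies next to Hoxa13, was not called. It read -2.57 and -4.79 on the naive arrays, -2.74 and -3.98 in EAE, -3.17 and -2.89 with iguratimod, and -5.47 and -4.56 in chronic EAE, WT first. Its sides in the 4 genotype pairs were those of paralogues 1 to 4, with differences of -2.22, -1.24, 0.28 and 0.90, although its neighbour Hoxa13 was below background throughout. The mean of all 22 genes, Evx1 included, lay on those sides too. It deviated by 0.08 and -0.18, 0.17 and 0.08, 0.13 and 0.19, and -0.30 and -0.16 in the same order.

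Position genes of the brain in front of the Hox territory were read on the same arrays. Of 20 such genes 14 to 18 were well above background on an array. Otx2, of forebrain and midbrain, read -1 and 0.60 on the naive arrays, -1.97 and -0.35 in EAE, 0.06 and -1.02 with iguratimod, and -0.62 and 0.18 in chronic EAE, WT first. En2, of the midbrain and cerebellum, read 1.52 and 3.70, -0.26 and 2.42, 2.91 and 1.2, and 2.07 and 3.09 in the same order. Gbx2, of the front hindbrain, was above background on 6 arrays and read lowest on the Cx47-deficient naive (-6.07) and Cx47-deficient chronic (-6.26) arrays, below background on both. Sp8 and En2, above background on all 8 arrays, ranged over 4.84 and 3.96, and Dlx5 was below background on Cx47-deficient naive. Brain genes and spinal cord Hox genes were thus measured together on each array whose tissue label is spinal cord.

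Neuron markers of brain regions also varied over the arrays, including between the 2 iguratimod arrays. The 12 cerebellar markers were above background on every array. Their mean deviation from gene means was -0.47 and 1.36 on the naive arrays, -1.88 and 0.17 in EAE, 0.78 and -0.70 with iguratimod, and -0.06 and 0.81 in chronic EAE, WT first. Their summed level was 6.76 and 8.16, 5.46 and 7.19, 8.09 and 6.47, and 6.80 and 7.76 on the log2 scale. Gabra6, a granule cell receptor subunit, read -0.25 on WT EAE and 3.97 on Cx47-deficient naive. The 11 striatal markers deviated by 1.08 and -1.54, 0.40 and 0.33, -1.12 and 0.49, and 1.12 and -0.75, with summed levels of 7.04 and 5.56, 6.47 and 6.49, 5.68 and 6.64, and 6.89 and 5.40. Drd2 and Adora2a were below background on Cx47-deficient naive and Drd2 on WT iguratimod. The 12 spinal cord and motor neuron markers, of which 10 passed the filter, deviated by 0.69 and -0.43, 0.48 and -0.03, -0.02 and 0.29, and -0.47 and -0.52. In naive, EAE and iguratimod pairs that list lay on the same side as Hox paralogues 1 to 4, and so did the striatal list. In the chronic pair both lists lay on the other side. Hox cofactors lay on the side of Hox paralogues 1 to 4 in every pair. They deviated by 0.04 and -0.25, 0.21 and 0.08, 0.13 and 0.30, and -0.32 and -0.18. In the spinal cord list Prph, above background on all 8 arrays, ranged over 2.49. Isl1 was below background on Cx47-deficient naive, and Mnx1 was above it on 1 array, WT naive. The part of these marker lists in the Hox differences was not tested, and in bulk RNA fewer cells of a type and less RNA per cell cannot be told apart.

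**Figure D4:**
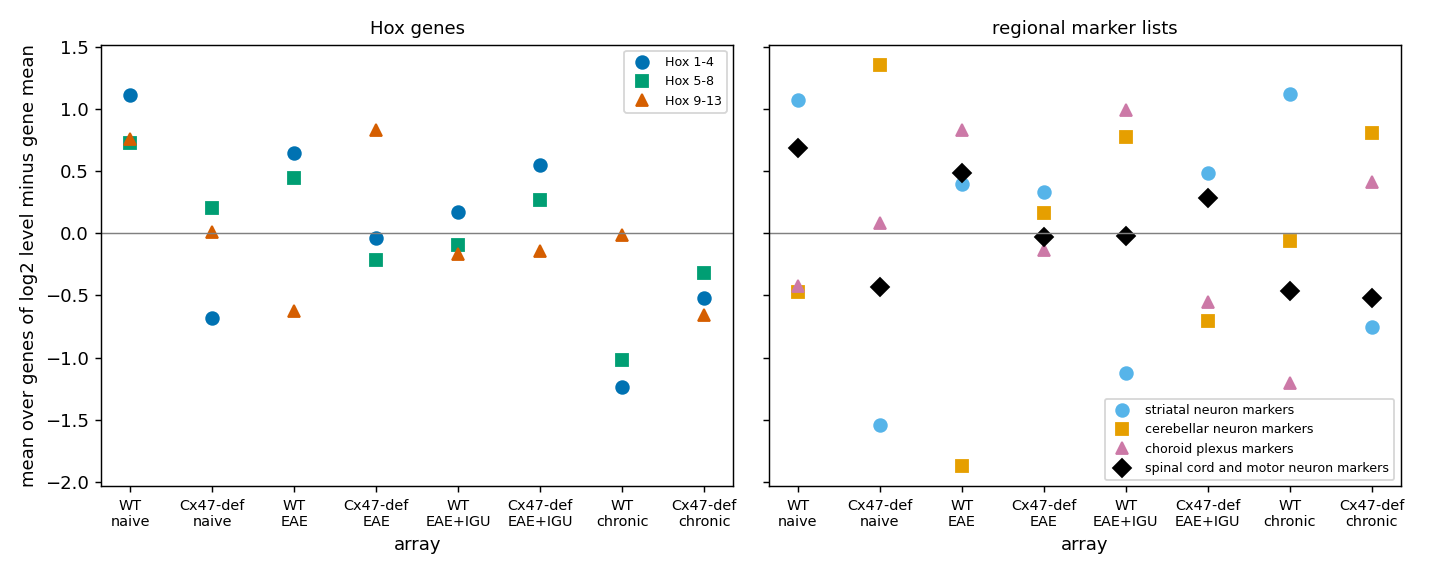
Mean over genes of the log2 level minus the gene mean (y axis) on each of the 8 arrays (x axis), for Hox genes in 3 paralogue ranges (left) and for 4 lists of regional markers (right). Hox 1-4 and the spinal cord list are highest on WT naive, and the cerebellar list is highest on Cx47-deficient naive and lowest on WT EAE.

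Astrocyte markers, those of the labelled cell type, had a mean deviation of 0.23 and 0.05 on the naive arrays, 0.36 and 0.27 in EAE, 0.32 and 0.12 with iguratimod, and -1.03 and -0.33 in chronic EAE, WT first. In the naive, EAE and chronic pairs they lay on the same side as Hox paralogues 1 to 4, and with iguratimod on the other. On the chronic arrays Hox paralogues 1 to 4 deviated by -1.23 and -0.52. Gfap, the intermediate filament of reactive astrocytes, read 2.12 and 2.41, 3.83 and 3.87, 3.17 and 3.51, and 0.77 and 1.53 in that order. Gja1, the main astrocyte connexin, read 0.53 and 0.28, 0.53 and 0.64, 0.50 and 0.20, and -0.85 and -0.29. Oligodendrocyte markers deviated by 1.05 and 0.66, 0.48 and -0.30, 0.14 and 0.07, and -1.16 and -0.93. Of 9 T and NK cell markers 3 were above background on each naive array and 8 on each other array, with a mean deviation from -2.15 on Cx47-deficient naive to 1.86 on Cx47-deficient EAE. Myeloid markers ranged from -1.14 on WT naive to 1.22 on Cx47-deficient EAE, endothelial markers from -1.69 on Cx47-deficient naive to 1.19 on WT EAE, meningeal fibroblast markers from -0.43 on WT chronic to 0.58 on Cx47-deficient EAE, choroid plexus markers from -1.2 on WT chronic to 0.99 on WT iguratimod, and muscle markers from -0.20 on Cx47-deficient iguratimod to 0.40 on WT iguratimod. Keratinocyte markers were highest on WT chronic (0.78). Their part in the Hox differences was not tested.

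Among 25851 other genes the pattern closest to the mean of the 33 Hox genes over the 8 arrays was that of Rab38, with a Pearson r of 0.97, and 0.97 again without the WT naive and WT chronic arrays, the 2 farthest from the median. Zfp37 (0.96), Fzd10os (0.96), Dcdc5 (0.96), Cd83 (0.96), Nkx6-1 (0.96), Serpine2 (0.95) and Cd81 (0.95) were the other named genes of the top 10. Nkx6-1 is a patterning factor of the ventral spinal cord. At the opposite end stood Krt5 (-0.97), a keratin of basal skin cells, Bhlhe40 (-0.96) and C130071C03Rik (-0.96), beside 7 entries named only by a position, a probe or a sequence record. Krt5 was well above background on only 3 of the 8 arrays, so its r rests largely on values below background. Bhlhe40 and C130071C03Rik were well above background on all 8, and most of the 7 entries on 2 to 6. With 8 arrays such values are common, since 242 genes (0.936%) had r above 0.9 and 223 below -0.9.

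Where a gene had several probes, the second probe did not always follow the first. The second Hoxb2 probe, above background on 6 arrays, correlated with the one used at r = -0.71 and gave the opposite side in all 4 genotype pairs, with its WT array below background in EAE. Second probes above background on all 8 arrays correlated positively with the first for Hoxd8 (r = 0.98), Hoxb8 (0.97), Hoxc6 (0.91), Hoxb3 (0.88 and 0.86), Hoxa10 (0.76) and Hoxa9 (0.64). They were on the same side as the first in 2 to 4 of the 4 genotype pairs. Sizes differed as well. In the naive pair the other Hoxb3 probes gave -0.48 and -0.34, short of 2-fold, against -1.69 at the probe used. The second Hoxa9 probe gave 0.41 in the naive and 0.05 in the EAE pair, against 1.07 and 1.33. That of Hoxa10 gave -0.04 against 0.21 in the naive pair, and in the EAE pair it stayed past 2-fold (1.64 against 2.04). The exon or UTR each probe lies in is not given in the sources used here.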

How the data were processed

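Per the file headers, the scanner files as deposited give the intensity of each spot from Agilent Feature Extraction 10.7.1.1 (9.5.1.1 per the submitters' processing notes, a difference not resolved), with probe positions on mm9. The processed signal used was background-subtracted by that software, per the file headers. Flags were used as deposited. A deposited table of the authors' processed values, a linear intensity with a median of 50.2 in every column, served as an alternative. TRIzol and a column kit gave the RNA, and a low-input kit the labelled target, per the labels' protocols.

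Control spots were left out, log2 signals were centred on each array's percentile 75, and spots of a probe were averaged. Outlier spots were left out unless no other spot of the probe remained on that array. The 52 Hox probes had 52 spots, so none of theirs was left out. Probes were named through a RefSeq gene table where they matched (32994 of 56605 by accession). The fits, with limma 3.58.1 in R 4.3.3, took condition plus genotype over 8 arrays. They covered 25884 genes well above background on at least 2 arrays (3 residual degrees of freedom, prior SD 0.23). A run on simulated data gave every gene the same spread and no slide effect. It therefore cannot show how the fits perform at the unequal spreads of these genes. Calls are Benjamini-Hochberg adjusted p under 0.05 over all genes. Since nothing says the arrays came from separate animals, p-values measure only the spread between these arrays, which may be technical. Differences of 2 arrays were counted at 2-fold among genes well above background on either array, where a dim value was replaced by that array's floor (the minimum over probes that passed the flag), which makes the fold a bound. The number of arrays limits the precision.

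The members, marker and pathway lists were chosen with earlier results of these data known. Members named are those called, up to 5 with the largest differences on each side of each comparison, those above background on all or exactly 1 array, and those with disagreeing probes. From other lists, called genes and up to 3 with the widest range are named, with Otx2, En2, Gbx2, Gfap and Gja1 always, and the 10 genes most and least like the Hox mean. A few genes that the rule names are not reported here. Other genes named (Hoxb4, Hoxb5, Hoxd4, Evx1) were chosen after their values were seen. Alternatives were normexp (offset 50), median centring, quantile normalization, the authors' values, mean of probes, other filters, 3-fold, unraised dim values, slide 1 alone and leaving out each array.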

Additional observations from a re-analysis of the deposited data

Results flagged for a closer look

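The Cx47-deficient minus WT difference of Hox paralogues 1 to 4 stood out because all compared genes lay on 1 side of 0 in some conditions and on the other side in others. The median log2 difference was -1.69 in naive mice (11 of 11 genes lower) and -0.64 in EAE (11 of 11 lower), against 0.39 in EAE with iguratimod (11 of 11 higher) and 0.82 in chronic EAE (10 of 10 higher). The genes of 1 array share its RNA, and with 1 array in each group the difference between conditions was not tested.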

How the results depend on the processing

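Of the counts recomputed under other settings, 131 stayed near the main count and 47 moved. Near means within 1.5 times for 2-fold counts and limma calls. For the counts above background per array it means within the 95% binomial interval of the main count. With normexp, 13 Hox genes were past 2-fold between genotypes in naive mice (main 23), 2 in EAE (12) and 2 in chronic EAE (9). For EAE against naive it gave 2 in WT (8) and 3 in Cx47-deficient mice (11), for iguratimod 1 in WT (4) and 1 in Cx47-deficient mice (3), and in Cx47-deficient mice 3 for chronic against acute (15) and 6 for chronic against naive (11). At 3-fold these 9 counts were 13, 6, 1, 5, 3, 2, 1, 5 and 5. Dim values as measured gave 7 for iguratimod in WT, and median centring 5 for iguratimod in Cx47-deficient mice. Limma calls for chronic against acute EAE (main 1) were 3 with normexp, 5 with median centring, 0 with no filter and 3 among genes above background on all 8 arrays. For chronic against naive (main 1) they were 6, 3, 0 and 4, and 0 after quantile normalization and in the authors' values (Hoxd8 adjusted p 0.0501 and 0.0510 by limma). Leaving out 1 array gave 0 to 1 calls for chronic against acute and 0 for chronic against naive. Without either naive array the call was Hoxb6 (adjusted p 0.0492 by limma). The scanner's looser flag, positive and significant, counted 33 Hox genes on Cx47-deficient naive, 34 on WT EAE and 36 on WT chronic. Averaging probes turned Hoxb2 to 1.56 in chronic against acute WT mice, to 0.89 in that fit (adjusted p 0.238 by limma) and to 0.053 in the fit of chronic against naive (0.948), where the second probe weighs in. The median of paralogues 9 to 13 in the naive genotype pair became -0.12 with median centring. The fits of genotype, EAE and iguratimod gave 0 calls on slide 1 alone too. No paired analysis was possible because each group has 1 array and the labels give no replicate numbers. Dim probes limit the high-numbered genes, whose folds are often bounds.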

Other observations

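Antisense and long noncoding transcripts of the clusters had probes of their own. They are told apart here by the accession of the probe, and whether strand was kept in labelling is not given in the sources used here. Hoxb5os, which lies in the Hoxb cluster, was well above background on all 8 arrays. Its probe on chromosome 11 at 96152394 to 96152453 (mm9) read -1.55 and -2.97 on the naive arrays, -2.31 and -2.44 in EAE, -2.5 and -2.45 with iguratimod, and -4.29 and -3.73 in chronic EAE, WT first. Its genotype differences of -1.42, -0.14, 0.04 and 0.56 had the sides of Hox paralogues 1 to 4, while its second probe gave -0.62, -0.50, -0.03 and 0.04. Hoxa11os, on chromosome 6, gave differences of -1.17, 1.23, -0.15 and -0.26 at 1 probe and -0.80, 0.26, -0.01 and -0.56 at the other. Those of Hoxa11 itself were -1.50, at least 2.02, 0.15 and -0.77.

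Hoxaas2 had its highest levels on the chronic arrays. It read -0.24 and -0.32 there, against -1.53 and -1.55 on the naive arrays, -2.64 and -1.62 in EAE, and -1.96 and -2.16 with iguratimod. Hottip, a noncoding gene beyond Hoxa13, was above background on 2 arrays, those of Cx47-deficient EAE and Cx47-deficient chronic EAE.

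Some keratin genes of skin stood apart on the WT chronic array, on which low-numbered Hox genes were lowest. Krt15 read -2.61 there and was below background on the other 7 arrays. Krt14 read -0.98 there and between -5.03 and -3.82 on the others, and Krt5 read -2.06 there and -3.32 on the Cx47-deficient chronic array. Trp63, a keratinocyte factor, read 3.10 and 2.84 on the chronic arrays and between 2.22 and 2.46 on the others. The genes named here do not stand for the whole list of 10 keratinocyte markers. The 8 that passed the filter had a mean deviation of 0.78 on WT chronic and -0.12 on Cx47-deficient chronic. Of these 8, 0 were called for chronic against acute EAE and 0 for chronic EAE against naive, where 14.5% and 0.947% of all genes were.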
